A study of Mus musculus with 25 samples.

Results

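The genes studied here code for 33 ligands of the transforming growth factor beta (TGF-beta) and bone morphogenetic protein (BMP) family and 4 of their secreted antagonists, a list of 37 genes taken by name. The list was chosen with earlier results of these data known. For each gene, the length covered by H3K27me3 peaks was measured over its mm10 gene record and 5 kb on each side. All 37 were found among the 20665 autosomal protein-coding records of the mouse annotation. Their windows, the record with its flanks, were 11.9 to 164.6 kb long. One listed ligand gene, Bmp1, codes for a proteinase that cleaves procollagen and chordin and is no TGF-beta ligand in structure. It was kept with the ligands because the list names it so.

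Trimethylation of lysine 27 on histone H3 (H3K27me3) is placed at silenced developmental genes by PRC2, a Polycomb complex whose methyltransferase is Ezh2. Ligands of the family are secreted dimers that bind pairs of serine/threonine kinase receptors, which pass the signal to Smad proteins in the nucleus. Antagonists such as noggin, chordin, gremlin and follistatin bind ligands outside the cell and keep them from their receptors. BMP signals pattern the embryo and direct cell fate in neural tissue, bone and gut, while TGF-beta controls matrix production and growth in fibroblasts.

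The series profiled H3K27me3 in neural progenitor cells (NPC) by CUT&RUN, in which an antibody guides a nuclease to marked chromatin, and in fibroblasts by ChIP-seq. The wild-type NPC were derived from embryonic stem cells and were profiled under PRC2 inhibition (2 uM UNC1999 together with 4 uM A395), following washout of both compounds, or untreated, with 2 libraries each. Mouse embryonic fibroblasts (MEF) were immortalized with c-myc and came as lines A and B, written MEF A and MEF B below. Line A was given as Ezh2 -/-, as Ezh2 -/- with Ezh2 from the retroviral vector pMSCV-Ezh2, and as wild type. Line B was given as Ezh2 -/- in a form called reversible, as a rescue of the endogenous Ezh2, and as wild type, again with 2 libraries for each state. The other 7 of the 25 libraries, an input and ChIP for RNA polymerase II, H3K4me3 and H3K36me3 in line A labelled Ezh2 -/-, were not used here. The labels do not say whether each line was 1 clone. Measured values came from 3 peak lists, 1 for each cell system, that hold positions and no heights, so depth is unknown and inhibition, washout, Ezh2 loss and rescue could not be compared. Which libraries entered each list is not stated. The names of both fibroblast lists join wild-type with Ezh2 -/- libraries of their own line, while that of the NPC list states no treatment.

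The MEF A list held 86235 peaks, the MEF B list 81972 and the NPC list 44807, and the part of list size in the counts below was tested only by the alternatives given at the end. There was no replicate of any list and no test of a difference between lists, and NPC and MEF also differed in assay. Genes that mark the labelled cells were largely free of peaks in their own list, and the fibroblast markers were free of them in NPC as well. Of 8 fibroblast marker genes, 1 had a peak within 5 kb in MEF A (Col1a1, 0.89 kb covered) and 0 in MEF B and NPC, which allows a share of up to 37.5%. Neural progenitor markers, 8 genes that share Vim with the first list, had peaks at 5 of 8 (MEF A), 6 of 8 (MEF B) and 0 of 8 (NPC). Over all genes the shares were 40.2% in MEF A, 40.9% in MEF B and 31.9% in NPC. The limit of 37.5% for 0 of 8 genes lies above the NPC share.

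Promoter sequences of 6 members are given because they stand for the patterns described below. Grem1, Gdf7 and Bmp10 had a peak within 2 kb of the gene start in all 3 lists. Tgfb1 had one in NPC and MEF A, and Bmp5 and Tgfb2 in no list. The sequences are those of RefSeq, build GRCm38.p6, from 250 bases before to 50 bases after the start, with CG dinucleotides (CpG) in capitals.
Grem1 (chr2:113758599-113758898, minus strand): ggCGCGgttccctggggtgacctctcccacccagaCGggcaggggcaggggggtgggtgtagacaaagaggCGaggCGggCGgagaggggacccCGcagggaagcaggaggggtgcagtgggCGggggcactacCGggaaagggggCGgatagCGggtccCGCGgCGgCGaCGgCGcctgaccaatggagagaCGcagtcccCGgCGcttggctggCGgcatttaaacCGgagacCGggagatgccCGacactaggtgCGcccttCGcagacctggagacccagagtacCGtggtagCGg
Gdf7 (chr12:8301905-8302204, minus strand): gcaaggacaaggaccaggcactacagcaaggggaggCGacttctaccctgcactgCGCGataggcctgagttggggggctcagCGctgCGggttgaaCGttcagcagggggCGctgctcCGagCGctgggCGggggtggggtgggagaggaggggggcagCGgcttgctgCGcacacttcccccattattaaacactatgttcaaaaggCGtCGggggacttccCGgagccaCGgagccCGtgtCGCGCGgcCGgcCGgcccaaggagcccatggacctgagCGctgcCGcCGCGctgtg
Bmp10 (chr6:87428744-87429043, plus strand): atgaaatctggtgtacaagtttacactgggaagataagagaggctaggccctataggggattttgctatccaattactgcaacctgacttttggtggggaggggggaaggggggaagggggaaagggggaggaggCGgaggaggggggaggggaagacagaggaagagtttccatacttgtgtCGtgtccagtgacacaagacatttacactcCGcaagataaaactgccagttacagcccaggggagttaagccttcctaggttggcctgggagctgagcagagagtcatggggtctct
Tgfb1 (chr7:25686752-25687051, plus strand): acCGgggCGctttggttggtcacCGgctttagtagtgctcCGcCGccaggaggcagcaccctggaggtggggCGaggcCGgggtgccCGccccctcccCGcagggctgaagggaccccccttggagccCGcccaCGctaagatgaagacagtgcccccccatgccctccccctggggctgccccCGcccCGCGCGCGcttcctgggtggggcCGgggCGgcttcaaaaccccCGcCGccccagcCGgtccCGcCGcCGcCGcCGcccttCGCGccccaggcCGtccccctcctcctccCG
Bmp5 (chr9:75775115-75775414, plus strand): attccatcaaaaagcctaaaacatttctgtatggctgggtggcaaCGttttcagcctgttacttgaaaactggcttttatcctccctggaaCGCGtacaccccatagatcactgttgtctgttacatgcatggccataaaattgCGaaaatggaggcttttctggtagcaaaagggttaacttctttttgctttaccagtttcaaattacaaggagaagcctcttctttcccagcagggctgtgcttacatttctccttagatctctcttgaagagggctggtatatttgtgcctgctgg
Tgfb2 (chr1:186705940-186706239, minus strand): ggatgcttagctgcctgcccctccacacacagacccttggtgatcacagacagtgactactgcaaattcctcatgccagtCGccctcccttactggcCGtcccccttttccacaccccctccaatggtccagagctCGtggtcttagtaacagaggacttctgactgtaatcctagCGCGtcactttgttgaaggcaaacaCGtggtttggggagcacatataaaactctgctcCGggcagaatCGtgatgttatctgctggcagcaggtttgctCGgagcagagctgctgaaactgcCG
The Grem1, Gdf7 and Tgfb1 promoters held 28, 26 and 30 CpG, against 3 in that of Bmp10, 4 in that of Bmp5 and 10 in that of Tgfb2.

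With a peak within 5 kb as the rule, both fibroblast lists called a larger share of the family's genes than of all genes. In NPC the members' share was also larger, but its interval included that of all genes. A peak lay within 5 kb of the record at 24 of 37 members in MEF A (64.9%), where 40.2% of all autosomal protein-coding genes had one. In MEF B it was again 24 of 37 (64.9%), against 40.9% of all genes. In NPC it was 16 of 37 (43.2%), against 31.9% of all genes. The 95% exact binomial (Clopper-Pearson) intervals of the members' shares ran from 47.5 to 79.8% in both fibroblast lines and from 27.1 to 60.5% in NPC. These intervals cover counting error only, and genes with shared windows are not independent. Because the members and the other gene lists below were chosen with earlier results known, the comparisons with all genes are descriptions. The intervals do not carry that choice.

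The median member had 10.8% of its window covered in MEF A, 12.3% in MEF B and 0% in NPC, and the median of all genes was 0% in each list. Mean coverage was 21.0%, 22.8% and 12.6% over the members, against 12.0%, 11.6% and 6.43% over all genes. At least 50% of the window was covered at 6 members in MEF A (16.2%, against 9.98% of all genes), at 8 in MEF B (21.6%, against 9.71%) and at 5 in NPC (13.5%, against 3.91%). By this rule too the members' share was above that of all genes in each list, NPC included. These counts are small, and the exact interval of the MEF A share includes the all-gene share. Gdf6 alone was covered to this extent in all 3 lists (1.39% of all genes). MEF A and MEF B both reached it at 2 members, Gdf6 and Bmp10 (5.91% of all genes), of which Bmp10 did not in NPC (4.51% of all genes).

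Nog, Chrd, Inhbb and Mstn were covered this far in MEF A and not MEF B (4 of 37, 4.07% of all genes). Grem1, Bmp2, Gdf10, Inha, Inhbc and Nodal were so in MEF B and not MEF A (6 of 37, 3.8% of all genes). Gdf7 and Tgfb1 were so in NPC alone (2 of 37, 1.42% of all genes), and 23 members in no list (62.2%, against 84.8% of all genes). Which members were most covered differed between the lists, as the plot of coverage by gene shows.

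**Figure D1:**
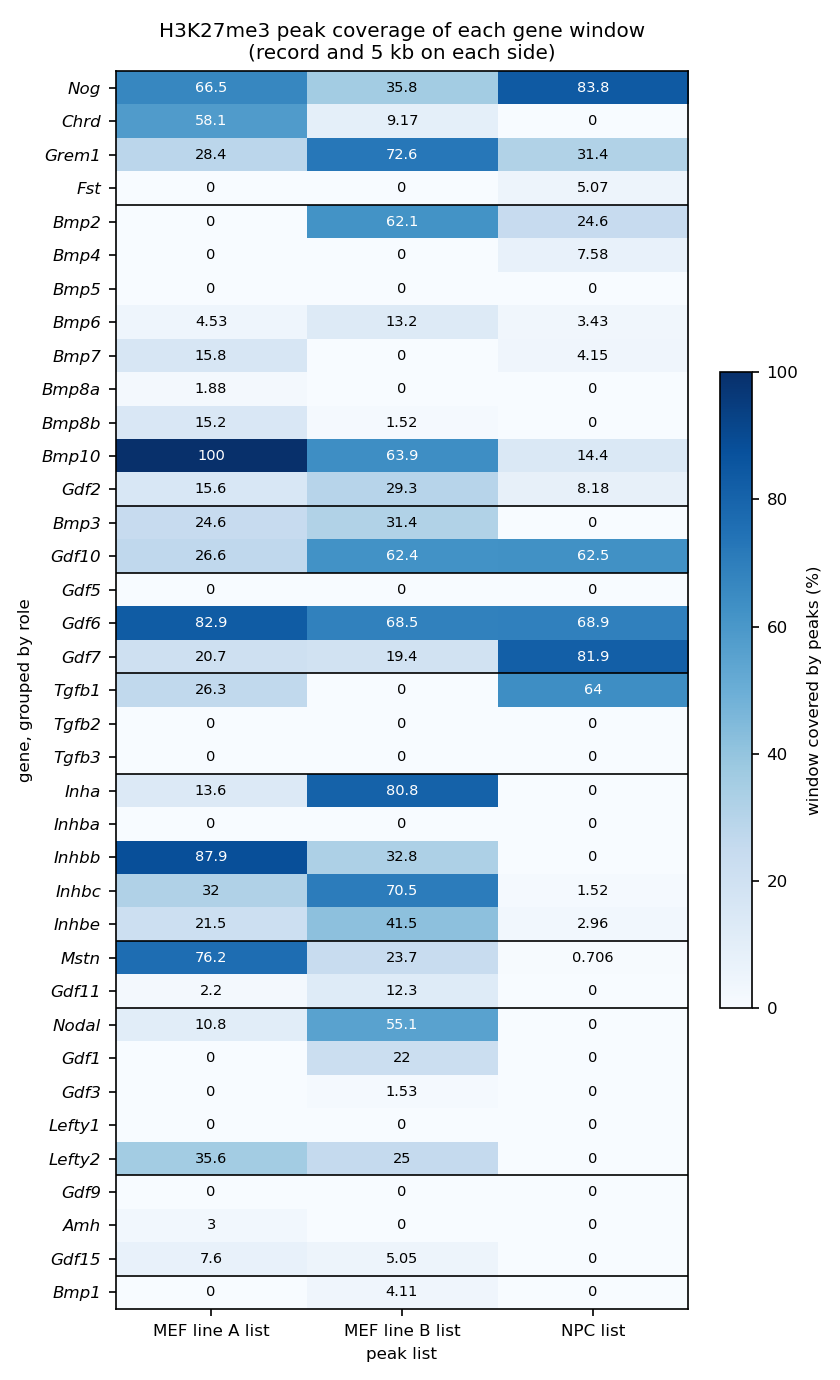
Percentage of each gene window (record and 5 kb on each side) covered by H3K27me3 peaks, for 37 genes in rows, grouped by role with antagonists on top, and the 3 peak lists in columns, with no replicates. Gdf6 is dark in all 3 columns (82.9, 68.5 and 68.9%), Bmp10 is covered in full in line A, and Bmp5, Gdf5, Tgfb2, Tgfb3, Inhba, Lefty1 and Gdf9 are at 0 throughout.

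Counts near the gene start were highest in MEF B. A peak lay within 2 kb of the start at 16 members in MEF A (43.2%, against 25.5% of all genes), 22 in MEF B (59.5%, against 26.8%) and 11 in NPC (29.7%, against 18.7%). For 14 members and for other genes without a given start, both ends of the record were searched, so these genes had a pair of windows and the members' shares and the all-gene shares above are not on equal windows. Among the 23 members with a given start, the shares were 47.8% in MEF A, 65.2% in MEF B and 26.1% in NPC, against 23.9%, 25.1% and 17.5% of all genes with a given start, with 1 window length for all. Peaks near the start in MEF B but absent there from MEF A were found at 10 members of 37 (7.81% of all genes), namely Bmp2, Bmp6, Gdf2, Gdf10, Inha, Inhbe, Gdf11, Gdf1, Gdf3 and Bmp1. The reverse held at 4 members (10.8%, against 6.58%), Bmp7, Bmp8a, Bmp8b and Tgfb1. All 3 lists had a peak near the start at 5 members, Nog, Grem1, Bmp10, Gdf6 and Gdf7 (13.5%, against 9.33% of all genes). Both fibroblast lines and not NPC had one at 7, Chrd, Bmp3, Inhbb, Inhbc, Mstn, Nodal and Lefty2 (18.9%, against 9.62%), and NPC alone at Fst (2.7%, against 4.99%). No list had one at 10 of 37 members, against 61.7% of all genes.

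**Figure D2:**
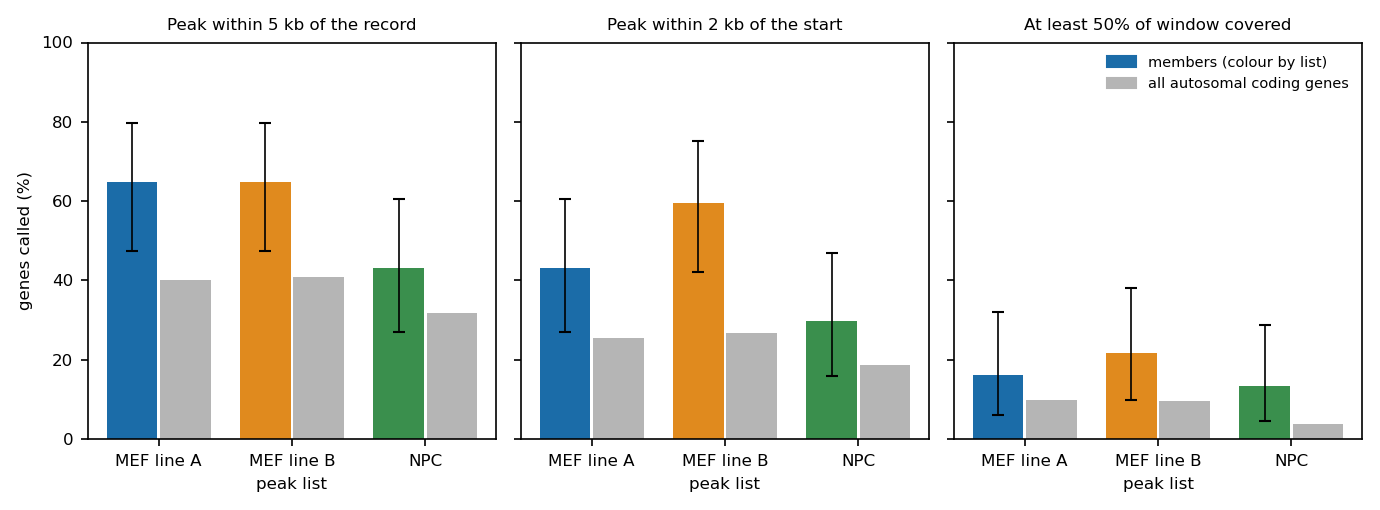
Share of genes called in each peak list by 3 rules, with the 37 members in colour left of all 20665 autosomal protein-coding genes in grey. Error bars are 95% exact binomial intervals that cover counting error only, and the coloured bar is the higher of each pair. In the rule for the start, genes without a given start were searched at both ends of the record.

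Among the antagonists, Nog and Grem1 carried peaks in all 3 lists, Chrd in both fibroblast lines and Fst in NPC alone. By count, 3 of the 4 antagonists had a peak within 5 kb in each list, and so had 21 of the 33 ligands in MEF A (63.6%, against 40.2% of all genes), 21 in MEF B (63.6%, against 40.9%) and 13 in NPC (39.4%, against 31.9%). The interval of the NPC ligand share, 22.9 to 57.9%, includes the all-gene share. With 4 genes the antagonists' share of 75.0% has an interval from 19.4 to 99.4%, which includes the share of all genes in each list.

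Grem1 (NCBI gene 23892, chromosome 2, 113748675 to 113758648, minus strand) codes for gremlin, which holds BMP2 and BMP4 away from their receptors. Its window was covered over 5.67 kb in MEF A (28.4%), 14.5 kb in MEF B (72.6%) and 6.28 kb in NPC (31.4%). A single peak crossed the gene start in each list, 4.99 kb wide in MEF A, 11.3 kb in MEF B and 6.28 kb in NPC. The 3 lists shared 4.88 kb, which was most of the length covered in MEF A and in NPC. With peaks under 3 kb apart merged, the domain over the Grem1 start spanned 7.2 kb in MEF A, 17.2 kb in MEF B and 6.3 kb in NPC and held no other protein-coding record. Its promoter, printed above, had more CpG than 80.4% of all promoters.

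Nog (gene 18121, chromosome 11, 89300638 to 89302559), for the BMP antagonist noggin, had 7.93 kb of its 11.9 kb window covered in MEF A, 4.27 kb in MEF B and 9.99 kb in NPC. The short Nog record itself was covered in full in MEF A and NPC and over 0% in MEF B. In MEF B the wide peak began beyond the record, from 89304041 to 89316066. Chrd (gene 12667, chromosome 16, 20731425 to 20742384), for chordin, had 12.2 kb covered in MEF A (58.1%), 1.92 kb in MEF B (9.17%) and 0 kb in NPC. A MEF A peak of 8.18 kb crossed its start, and the MEF B peak lay inside the gene. Thpo, a neighbouring gene, also has its record in the Chrd window. At Fst, for follistatin, which binds activins, the coverage was 0 kb in MEF A, 0 kb in MEF B and 0.85 kb in NPC, in a single peak outside the record.

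**Figure D3:**
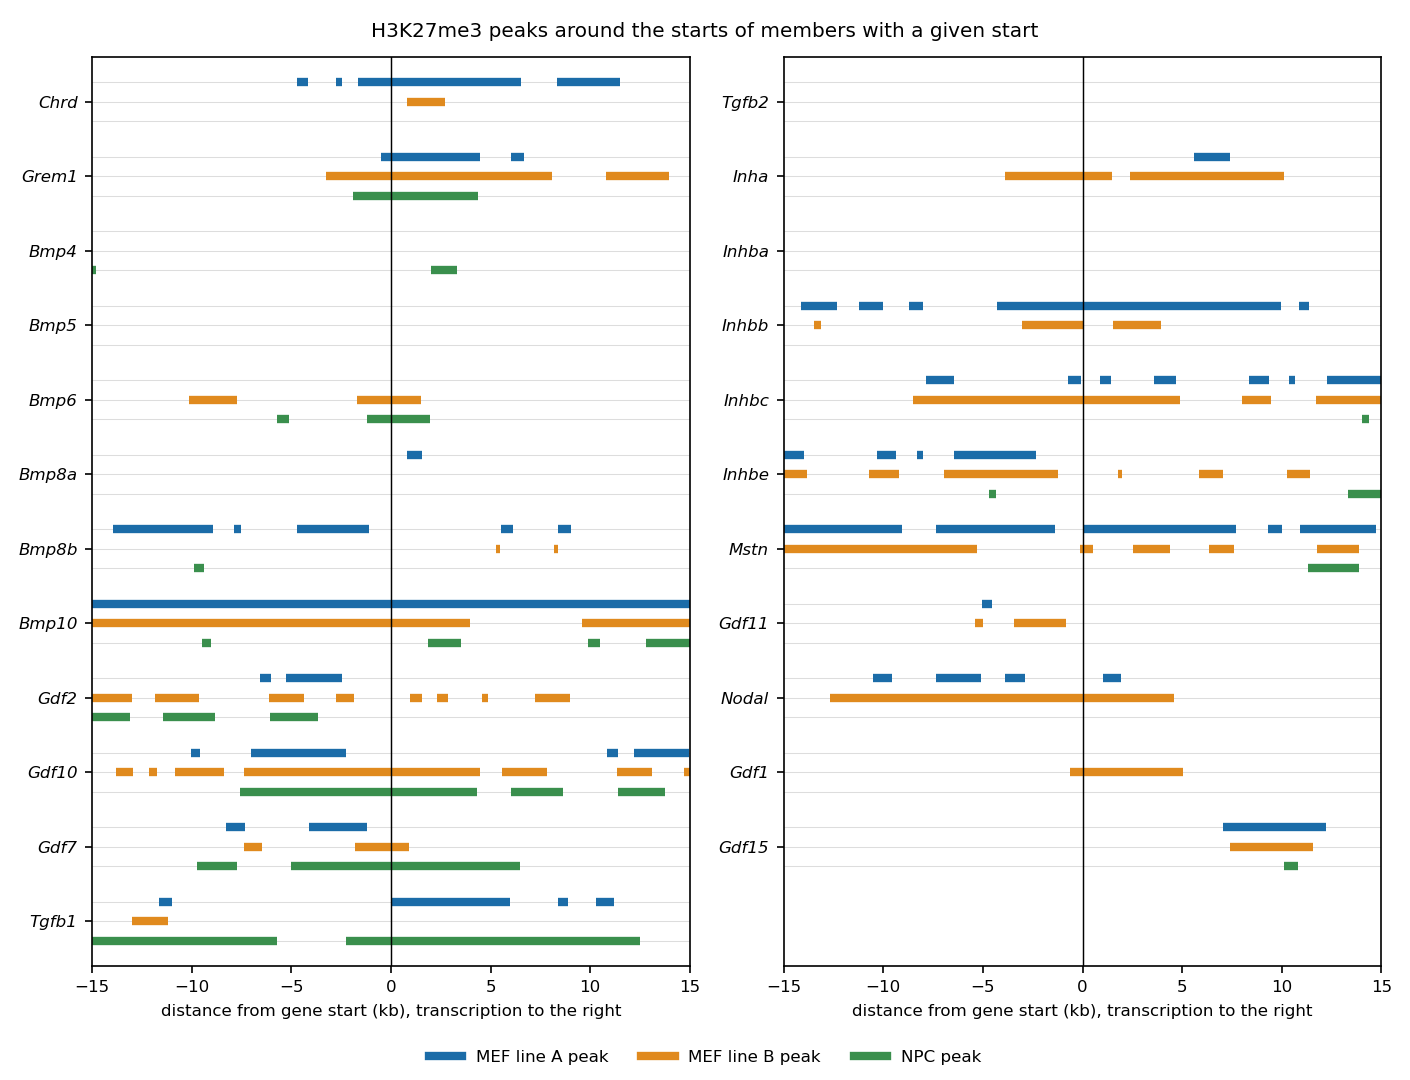
H3K27me3 peaks within 15 kb of the start of the 23 members with a given start, with distance from the start in kb on the horizontal axis and transcription to the right. Each gene has a row of line A peaks over a row of line B and a row of NPC peaks. At Grem1 all 3 lists cross the start, at Bmp10 the fibroblast peaks do, at Tgfb1 an NPC peak does and line A peaks begin at the start, and at Bmp5, Inhba and Tgfb2 no peak is drawn.

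The BMP ligands proper were marked unevenly. By share of the window Bmp10 was the most covered of them in both fibroblast lists, and Bmp2 in NPC. Of these 9 genes, 6 had a peak within 5 kb in MEF A (66.7%, against 40.2% of all genes), 5 in MEF B (55.6%, against 40.9%) and 6 in NPC (66.7%, against 31.9%). The exact intervals of these shares, 29.9 to 92.5%, 21.2 to 86.3% and 29.9 to 92.5%, include the all-gene share. Bmp10 (gene 12154, chromosome 6, 87428994 to 87434512), a ligand of the developing heart, had its entire 15.5 kb window under a MEF A peak, and had 9.92 kb covered in MEF B and 2.24 kb in NPC. The MEF A peak formed part of a joined domain of 110.8 kb that also reached Arhgap25, and the MEF B domain over the start was 23.7 kb wide. Bmp10 reached this coverage with a promoter of 3 CpG, a count that 17.5% of promoters fall under. The NPC peaks met only 123 bp of the 4001 bp around the Bmp10 start.

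Bmp2 (gene 12156, chromosome 2, 133552159 to 133562896), which acts in heart, limb and bone formation, was covered over 0 kb in MEF A, 12.9 kb in MEF B (62.1%) and 5.10 kb in NPC (24.6%). A single MEF B peak of 12.9 kb ran over the whole Bmp2 record. Bmp7 (gene 12162, chromosome 2, 172868012 to 172940321), needed for kidney and eye, had the reverse order between the fibroblast lines, with 13.0 kb in MEF A, 0 kb in MEF B and 3.41 kb in NPC. The widest MEF A peak at Bmp7, 10.1 kb, lay over the end of the record with the higher coordinate, where the NPC peak of 2.94 kb also lay. So the fibroblast lines split the pair, each with peaks at 1 of them, and NPC had peaks at both.

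Bmp6 (gene 12161, chromosome 13, 38345716 to 38500314), known for its control of iron metabolism, is 154.6 kb long and was thinly covered, over 4.53% of its window in MEF A, 13.2% in MEF B and 3.43% in NPC. Peaks of 3.22 kb in MEF B and 3.14 kb in NPC crossed the Bmp6 start, while no MEF A peak lay within 2 kb of it. Bmp4 (gene 12159), a ligand of early mesoderm and of dorsal neural tube, had 1.30 kb covered in NPC, inside the gene, and 0 kb in either fibroblast list. Bmp5 had no peak in its window in any list, and its nearest peaks lay 346.8 kb (MEF A), 16.4 kb (MEF B) and 309.7 kb (NPC) from the record.

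Bmp8a and Bmp8b, close copies that act in germ cells, had 0.76 and 4.83 kb covered in MEF A, 1.88% and 15.2% of their windows. In MEF B the covered lengths were 0 and 0.48 kb, and in NPC 0 kb each. The sources used here do not say how reads matching both copies were treated, so these values are uncertain. Gdf2 (BMP9, a circulating ligand of vessels) lies beside Gdf10 on chromosome 14, and their windows overlap. It was covered over 2.52 kb in MEF A, 4.73 kb in MEF B and 1.32 kb in NPC. Its MEF A and NPC lengths lay wholly in the stretch that both windows hold.

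The neighbour Gdf10 (gene 14560, chromosome 14, 33923587 to 33936514), also named Bmp3b, was covered over 6.10 kb in MEF A (26.6%), 14.3 kb in MEF B (62.4%) and 14.3 kb in NPC (62.5%). Peaks of 11.8 kb in MEF B and 11.9 kb in NPC crossed its start, which was outside the MEF A peaks. In MEF B the joined domain over the start reached 34.4 kb, the widest over a member's start in that list. The Gdf10 promoter held 42 CpG, more than 95.9% of promoters. Bmp3, its closest relative and a ligand that opposes other BMPs, had 9.74 kb covered in MEF A, 12.5 kb in MEF B and 0 kb in NPC.

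Gdf6 had the broadest marking shared by the 3 lists. Gdf6 (gene 242316, chromosome 4, 9844372 to 9862345), a ligand of joints, skull sutures and the eye, was covered over 23.2 kb in MEF A (82.9%), 19.2 kb in MEF B (68.5%) and 19.3 kb in NPC (68.9%). Of its 28.0 kb window, 15.5 kb (55.3%) was covered in all 3 lists. Joined domains over its record were 31.9 kb wide in MEF A, 21.1 kb in MEF B and 22.2 kb in NPC, where a second one of 2.2 kb lay at the far end, with no other protein-coding record in them. The NPC domain was the widest over a member in that list. Its covered share was above that of 96.9% of all genes in MEF A, 94.2% in MEF B and 97.9% in NPC.

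Its relatives differed. Gdf7 (gene 238057, chromosome 12, 8297918 to 8301954, minus strand), a signal of the neural tube roof plate, was covered over 2.91 kb in MEF A (20.7%), 2.72 kb in MEF B (19.4%) and 11.5 kb in NPC (81.9%). The NPC peak ran over the whole Gdf7 record, in a joined domain of 16.3 kb that also reached Ldah. The MEF B peak of 2.72 kb crossed the start, and the MEF A peak lay upstream of it. Gdf5, which acts in joint formation, had 0 kb covered in each list, and an NPC peak lay 5.11 kb from its record, just beyond the window.

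Of the TGF-beta genes, only Tgfb1 had peaks in these lists. Tgfb1 (gene 21803, chromosome 7, 25687002 to 25705077), the ligand best known for driving matrix production, was covered over 7.40 kb in MEF A (26.3%), 0 kb in MEF B and 18.0 kb in NPC (64.0%). An NPC peak of 14.7 kb crossed its start and also reached B9d2, and a MEF A peak of 5.95 kb began 37 bp inside the gene. Chromosome 7 as a whole was marked unevenly between the lists. A peak lay within 5 kb of 34.5% of its genes in MEF A, 24.8% in MEF B and 47.2% in NPC, and the part of this in the Tgfb1 values was not tested. Tgfb2 and Tgfb3 had 0 kb covered in each list, and the nearest peak of any list lay 46.7 kb from Tgfb2 and 88.2 kb from Tgfb3, in MEF B.

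The subunits of activin and inhibin, dimers named for their effects on follicle-stimulating hormone, were covered further in the fibroblast lists than in NPC, apart from Inhba, which had no peak in any list. Of the 5 genes, 4 had a peak within 5 kb in MEF A (80.0%, against 40.2% of all genes), 4 in MEF B (80.0%, against 40.9%) and 2 in NPC (40.0%, against 31.9%). The exact intervals, 28.4 to 99.5% for 4 of 5 genes and 5.27 to 85.3% for 2 of 5, include the all-gene shares. Both NPC calls, at Inhbc and Inhbe, came from 1 peak of 0.37 kb in the stretch that their windows share. In MEF A the only peak called at Inhbe was likewise also counted at Inhbc. Inhbb, the activin B subunit gene (gene 16324, chromosome 1, 119415463 to 119422248), was covered over 14.8 kb in MEF A (87.9%), 5.50 kb in MEF B (32.8%) and 0 kb in NPC. A MEF A peak of 14.3 kb held the whole Inhbb record. Inha, for the inhibin alpha subunit, was covered over 1.81 kb in MEF A, 10.7 kb in MEF B (80.8%) and 0 kb in NPC, and the Obsl1 record also lies in its window. Inhbc and Inhbe, expressed chiefly in liver, lie side by side on chromosome 10 with overlapping windows. Inhbc had 7.75 kb covered in MEF A, 17.1 kb in MEF B (70.5%) and 0.37 kb in NPC. Inhbe had 2.67, 5.17 and 0.37 kb covered in these lists, and 7.68% of the Inhbe record was covered in MEF B and 0% in the others. Inhba, the activin A subunit gene, had 0 kb in each list, and the nearest peak, in MEF A, was 52.2 kb away.

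Mstn and Gdf11 both had a peak within 5 kb in each fibroblast list (40.2% of all genes in MEF A, 40.9% in MEF B), and Mstn had one in NPC (31.9% of all genes). With 2 genes the exact interval in the fibroblast lists, 15.8 to 100%, includes the all-gene shares. With flanks of 2 kb, the covered share was 0% at Gdf11 in MEF A and at Mstn in NPC. Mstn (gene 17700, chromosome 1, 53061640 to 53068079), the brake on muscle mass, was covered over 12.5 kb in MEF A (76.2%), 3.89 kb in MEF B (23.7%) and 0.12 kb in NPC. In MEF A it lay in a joined domain of 142.2 kb, the widest over a member's start or record, which also held 1700019D03Rik. Mstn had peaks in all 3 lists and no base covered in all of them. Gdf11, its close relative and a signal of axial patterning, had 0.47, 2.60 and 0 kb covered in MEF A, MEF B and NPC, and 0% of its record in each.

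Of the 5 genes of the Nodal group, 2 had a peak within 5 kb in MEF A (40.0%, against 40.2% of all genes), 4 in MEF B (80.0%, against 40.9%) and 0 in NPC (31.9% of all genes), where a count of 0 allows up to 60.0%. The exact interval of the MEF B share, 28.4 to 99.5%, includes the all-gene share. Nodal (gene 18119, chromosome 10, 61417972 to 61425338), which induces mesendoderm and sets left-right asymmetry, was covered over 1.88 kb in MEF A (10.8%), 9.57 kb in MEF B (55.1%) and 0 kb in NPC. A MEF B peak of 17.3 kb crossed its start, in a joined domain of 22.0 kb. Lefty2, an inhibitor of Nodal, had 5.69 kb covered in MEF A, 3.99 kb in MEF B and 0 kb in NPC, while its copy Lefty1 had 0 kb in each list. Reads that match both Lefty genes could have been placed at either, so this contrast is uncertain. Gdf1, a partner of Nodal, had 5.68 kb covered in MEF B and 0 kb in the other lists, at the start of a record that overlaps that of Cers1. Gdf3, a ligand of pluripotent cells, had 0.22 kb in MEF B and 0 kb elsewhere.

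The remaining members held little. Gdf9, an oocyte factor, had 0 kb in each list. Amh, the hormone that removes the Mullerian duct, had 0.37 kb in MEF A and 0 kb in MEF B and NPC. Gdf15, a stress-induced hormone, had 0.99 kb in MEF A, 0.66 kb in MEF B and 0 kb in NPC, outside its record. Bmp1 had 2.31 kb in MEF B, outside its record, and 0 kb in MEF A and NPC.

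Set out by list, 11 members (29.7%) had a peak within 5 kb in all 3 lists, against 19.5% of all genes. The exact interval of this share, 15.9 to 47.0%, includes the all-gene share. These were Nog, Grem1, Bmp6, Bmp10, Gdf2, Gdf10, Gdf6, Gdf7, Inhbc, Inhbe and Mstn. Some of these calls are slight. In NPC, Mstn had 0.12 kb covered, and Inhbc and Inhbe had the same peak of 0.37 kb. At Bmp6 the 3 lists shared 0.02 kb. Both fibroblast lines but not NPC had peaks at 9 members (24.3%, against 12.5% of all genes), which were Chrd, Bmp8b, Bmp3, Inha, Inhbb, Gdf11, Nodal, Lefty2 and Gdf15. NPC alone had peaks at 2 (5.41%, against 5.97%), Fst and Bmp4. MEF A but not MEF B held 4 (10.8%, against 8.28%), Bmp7, Bmp8a, Tgfb1 and Amh. MEF B but not MEF A held 4 (10.8%, against 8.99%), Bmp2, Gdf1, Gdf3 and Bmp1. No list had a peak at 7 members (18.9%, against 44.8% of all genes), Bmp5, Gdf5, Tgfb2, Tgfb3, Inhba, Lefty1 and Gdf9. A gene without a peak in a list may still carry signal below the unknown threshold of that list.

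Bases shared between lists were counted next. Over the 35 separate stretches that the 37 windows form, 1186.4 kb in all, peaks covered 162.9 kb in MEF A, 181.2 kb in MEF B and 98.4 kb in NPC. MEF A and MEF B shared 79.6 kb, which was 48.8% of the MEF A length and 43.9% of the MEF B length, against 46.3% and 54.2% over all autosomes. MEF A and NPC shared 50.3 kb, 30.9% of the MEF A length and 51.2% of the NPC length, against 20.1% and 40.6% over all autosomes. MEF B and NPC shared 51.5 kb, 28.4% of the MEF B length and 52.3% of the NPC length, against 18.8% and 32.3%. All 3 lists shared 28.7 kb at 10 members, and Gdf6 gave 15.5 kb of it. The same 15.5 kb at Gdf6 also count in the shared length of each pair of lists. The autosome values take all peak bases, also those outside gene windows, so they are not a like comparison for the member windows. Of the 37 windows, 20 also hold another protein-coding record, so part of the length may belong to neighbours.

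Other genes of the pathway were counted by role, with no test between roles. None of the 8 Smad genes, whose products carry the signal to the nucleus, had a peak within 5 kb in any list, which allows a share of up to 37.5% in each. By this rule 40.2% of all genes were called in MEF A, 40.9% in MEF B and 31.9% in NPC. The limit lies above the NPC share and only a little under the shares of the fibroblast lists. Of 19 receptor and co-receptor genes, 5 had a peak within 2 kb of the start in MEF A (26.3%, against 25.5% of all genes), 8 in MEF B (42.1%, against 26.8%) and 3 in NPC (15.8%, against 18.7%), so the MEF A and NPC shares were near those of all genes. Within 5 kb, MEF B had peaks at 10 of the 19, with an interval of 28.9 to 75.6% that includes the all-gene share of 40.9%. Among these, Acvr1b (an activin receptor) and Acvrl1 (the endothelial receptor of BMP9 and BMP10) had one in all 3 lists, with 0.82, 3.34 and 1.91 kb and 5.56, 7.93 and 1.27 kb covered. The Nodal co-receptor gene Cfc1 had the largest share of its window covered among receptors in both fibroblast lists, 83.4% in MEF A, 100% in MEF B and 3.54% in NPC.

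Of 11 other secreted antagonist genes, 3 had a peak near the start in MEF A (27.3%, against 25.5% of all genes), 6 in MEF B (54.5%, against 26.8%) and 1 in NPC (9.09%, against 18.7%). The exact interval of 6 of 11, 23.4 to 83.3%, includes the all-gene share. Chrdl2, a chordin relative on chromosome 7, had one in each list and 59.6%, 25.4% and 69.1% of its window covered. Sost, for the bone protein sclerostin, was covered over 23.6% in MEF A, 76.8% in MEF B and 4.25% in NPC. Of the 4 genes for latent TGF-beta binding proteins, which store the ligand in the matrix, 1 had a peak near the start in MEF A, 0 in MEF B and 2 in NPC. The all-gene shares were 25.5%, 26.8% and 18.7%, and 4 genes are too few for a comparison. Ltbp2 was covered most, over 22.7% in NPC. Of the 4 Id genes, direct targets of BMP signals, Id4 alone had peaks, over 62.2% of its window in MEF A, 70.5% in MEF B and 49.3% in NPC. The exact interval of 1 of 4 genes, 0.631 to 80.6%, includes the all-gene shares within 5 kb of 40.2%, 40.9% and 31.9%.

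**Figure D4:**
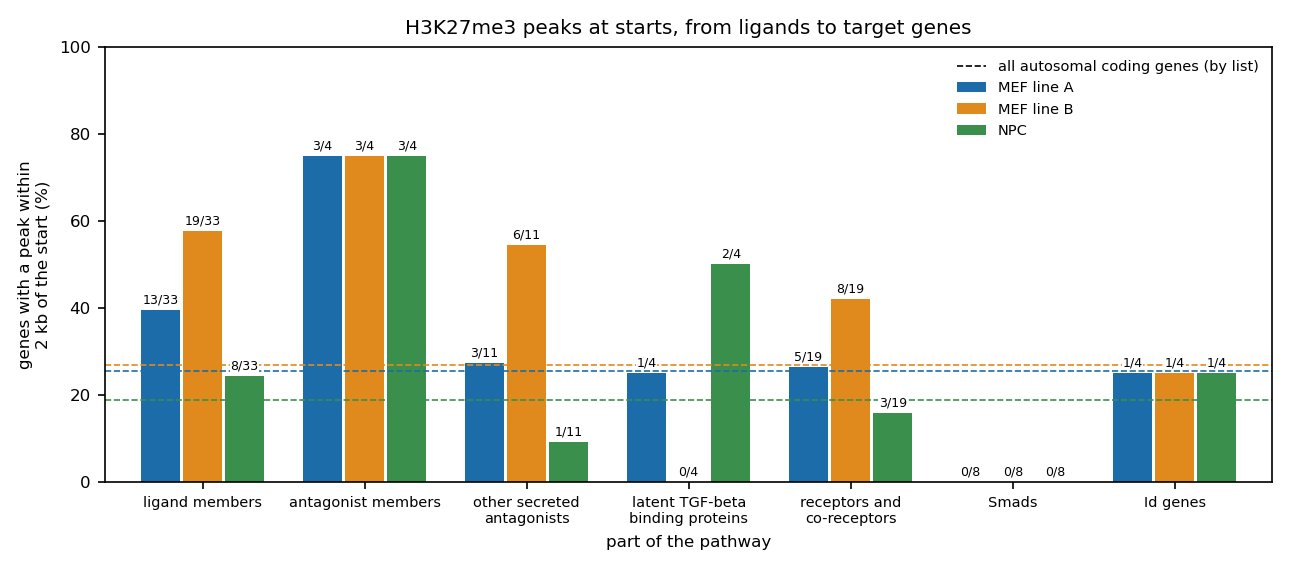
Share of genes with an H3K27me3 peak within 2 kb of the start, from ligands and antagonists to Smad and Id genes, for line A (MEF A), line B (MEF B) and NPC, with the number of genes over each bar and no replicates. Dashed lines give the share of all autosomal protein-coding genes in each list (25.5, 26.8 and 18.7%). The Smad bars are at 0, and the antagonist members are at 3 of 4 in each list. Genes without a given start, Nog and Fst among them, were searched at both ends of the record, so windows are not equal.

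Other ligand families were marked as well. Of 19 Wnt ligand genes, a peak lay within 5 kb at 16 in MEF A, 18 in MEF B and 13 in NPC. Of 20 Fgf ligand genes, it was 16, 17 and 14, where 40.2%, 40.9% and 31.9% of all genes had one. Their median window coverage was 52.8%, 41.4% and 10.6% for the Wnt genes and 22.3%, 23.9% and 13.3% for the Fgf genes. For the TGF-beta and BMP genes these medians were 10.8%, 12.3% and 0%. No test was made between the families.

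Among promoters with 20 or more CpG, those of members had peaks more often than the class as a whole in each list. Among those with fewer than 10 CpG, members were above their class in MEF B and near it in MEF A. In NPC 1 of 12 had a peak, too few to call a difference. The table of promoters gave 25 sequences for 23 members. Their median was 10 CpG in 300 bases, against 14 over 20085 promoters of autosomal protein-coding genes. Of 10 member promoters with 20 or more CpG, 6 had a peak within 2 kb in MEF A, 8 in MEF B and 5 in NPC, where 16.9%, 20.2% and 14.5% of all promoters of that class had one. Of 12 with fewer than 10 CpG, it was 4, 7 and 1, against 29.1%, 27.6% and 19.1% of all promoters of that class. These 12 hold both Gdf15 promoters, whose windows overlap, and 1 promoter of Gdf1, so they are not separate genes. The 7 member promoters without a peak in any list had a median of 7 CpG and the highest count was 12, at Bmp4. Member promoters with a peak in 1, 2 and 3 lists had medians of 15, 25 and 26 CpG, over 7, 8 and 3 promoters, and the last of these rests on Grem1, Gdf7 and Bmp10. Over all promoters the medians were 16, 10, 8 and 12 CpG for peaks in 0, 1, 2 and 3 lists, with no steady order.

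**Figure D5:**
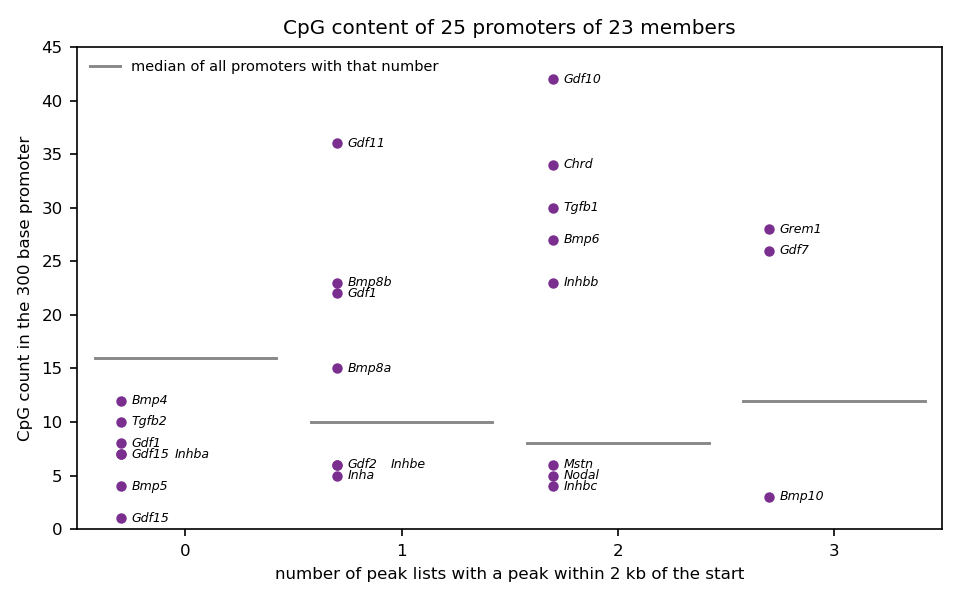
CpG count in the 300 base promoter of 23 members (25 promoters, Gdf1 and Gdf15 having a pair each) against the number of peak lists with a peak within 2 kb of that start, with grey lines at the median of all promoters. Grem1 (28) and Gdf7 (26) stand above the line at 3 lists and Bmp10 (3) below it, and all 7 promoters with no peak lie under the line of 16.

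The letters GGCGCC, a GC-rich element bound by Smad proteins and the same on both strands, were found in 4 of the 25 member promoters (16.0%, against 15.8% of all promoters). These were Grem1, Gdf1, Gdf10 and Chrd. The letters TATAAA, the core of a TATA box, searched on both strands, were found in 5 of 25 (12.7% of all promoters), at Mstn, Tgfb2, Gdf11, Inhba and Gdf2. A match describes the sequence and does not show a working site.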

How the data were processed

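The authors deposited 3 lists of peaks for the series as a whole, each with chromosome, start and end of each peak and no header, count, signal, score or p-value. The submitters' processing notes list MACS2 2.1.1.20160309, Bowtie2 2.2.9, deepTools, Picard and DESeq2 without saying what each did, and 2 builds, dm6 and mm10. The sources used here do not give the peak threshold, control or pooling. Samples were grouped from titles and source names, and the 25 libraries form 13 groups.

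Starts were read as 0-based and are printed 1-based. Gene records came from a RefSeq table of GRCm38.p6, the assembly of mm10, and gene starts and strands from a RefSeq promoter table, which covers 23 of the 37 members and 16457 of 20665 genes. Covered length counts each base once. A gene was called with at least 1 bp covered. Domains join peaks less than 3 kb apart. CpG were counted over 300 bases. All values are descriptions: no test was made, since each list is single. Shares carry 95% exact binomial intervals, and the limit for a gene list with 0 called is 3 genes of its size. The code was checked on simulated peaks. Python 3.11.15, NumPy 2.4.6, pandas 2.3.3 and SciPy 1.17.1 were used.

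The members and gene lists were chosen with earlier results of these data known. All members were named, pathway genes when marked near the start in all 3 lists or most covered in their list, and domains were described for members marked at the start in all 3 lists or with the widest domain. The domains of Bmp10, Nodal and Gdf7 and the neighbours Thpo, Obsl1, B9d2 and Cers1 were added after their values were seen.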

Additional observations from a re-analysis of the deposited data

How the results depend on the processing

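Counts of members with a peak were recomputed under 9 alternatives for each list (flanks of 2, 10 and 0 kb, 500 bp, 10% or 50% of the window covered, peaks of at least 1000 bp, the same number of widest peaks, and joined domains of at least 5 kb). Requiring 50% coverage left 6 members in MEF A (4 ligands), 8 in MEF B (7 ligands, 1 antagonist) and 5 in NPC (4 ligands, 1 antagonist). In NPC, requiring 10% left 8 members (6 ligands, with 16.3% of all genes called), and joined domains left 9 members (7 ligands, 16.9% of all genes). Every other alternative moved these counts by at most 1.5 times, as did 3 alternatives for the start window, the restriction to given starts (chosen after seeing the data) and joining peaks for the shared bases. With the 44807 widest peaks of each list, 21 members were called in MEF A, 22 in MEF B and 16 in NPC, against 33.4%, 34.8% and 31.9% of all genes. Of 333 recomputed coverage values of single members, 53 moved by more than 1.5 times (20 higher, 33 lower). The cause was not tested. No paired analysis was possible because the lists are not tied to samples, and for the same reason no replicate could be left out. Depth is unknown, so a gene without a peak cannot be told from one under the threshold.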
